A study of Mus musculus with 16 samples.

Results

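The granins and the enzymes that process prohormones were followed as 10 genes of the 32285 in the feature tables: the granins *Chga*, *Chgb*, *Scg2*, *Scg3*, *Scg5* and *Vgf*, the convertases *Pcsk1* and *Pcsk2*, the convertase inhibitor *Pcsk1n* and the carboxypeptidase *Cpe*. They were chosen by symbol, for what their products do, and all 10 were found in the table of each of 8 libraries. The study profiled nuclei of frozen, microdissected mouse dentate gyrus (DG) with the 10x Multiome assay, which counts RNA molecules (unique molecular identifiers, UMIs) and accessible DNA in the same nucleus. WT mice carried the genotype VV and V321L mice the genotype LL, a missense change of valine to leucine in *Nrg1*, the gene of a membrane-bound growth factor. Each genotype had 2 females (F1, F2) and 2 males (M1, M2), with 1 library per mouse. The labels name no drug, transgene or Cre and give no age or strain. A missense change need not move a transcript count, so the count of *Nrg1* cannot check these labels.

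Granins are acidic proteins that fill dense-core vesicles, the large secretory granules in which neurons store peptides, and several of them are themselves cut into peptides. Prohormone convertases cut precursors at pairs of basic residues inside the vesicle, carboxypeptidase E then trims those residues, and small partner proteins hold each convertase in check until the vesicle matures. In the DG, granule cells (GCs) and hilar neurons are rich in dense-core vesicles, and *Chgb*, *Scg2* and *Vgf* are known as genes that follow neuronal activity, in part through cAMP response elements in their promoters.

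The promoters of 4 members are shown because each holds that element just before the start of the gene. RefSeq (GRCm38.p6) gave a window of 250 bases before to 50 bases after the start for 8 of the 10 members, and *Vgf* and *Cpe* were not matched. The last 150 bases before the start of *Scg2* (chr1:79440027-79440176, minus strand), *Chgb* (chr2:132781492-132781641, plus strand), *Chga* (chr12:102554791-102554940, plus strand) and *Pcsk1* (chr13:75089707-75089856, plus strand) read as follows, 5′ to 3′ on the strand of the gene, with capitals on the letters TGACGTNA:
Scg2: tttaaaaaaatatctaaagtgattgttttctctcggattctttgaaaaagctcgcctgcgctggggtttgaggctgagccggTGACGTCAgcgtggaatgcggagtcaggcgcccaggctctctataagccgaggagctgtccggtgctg
Chgb: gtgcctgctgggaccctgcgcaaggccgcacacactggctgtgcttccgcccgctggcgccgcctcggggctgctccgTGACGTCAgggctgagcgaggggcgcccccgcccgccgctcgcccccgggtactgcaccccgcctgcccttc
Chga: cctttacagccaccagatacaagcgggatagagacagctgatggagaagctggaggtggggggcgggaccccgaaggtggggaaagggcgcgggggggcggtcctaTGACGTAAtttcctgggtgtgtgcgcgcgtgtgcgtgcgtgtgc
Pcsk1: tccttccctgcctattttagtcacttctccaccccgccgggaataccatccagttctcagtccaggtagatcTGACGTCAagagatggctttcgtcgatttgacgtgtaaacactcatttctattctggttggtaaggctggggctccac
The palindrome TGACGTCA, the same on both strands, lay 68 bases before the start of *Scg2*, 72 bases before that of *Chgb* and 78 bases before that of *Pcsk1*, and *Chga* held TGACGTAA 44 bases before its start. Of all 32851 RefSeq windows of the same length, 1.79% held TGACGTCA and 2.93% held TGACGTNA on either strand, against 3 and 4 of the 8 member windows. The shorter TGACG, which lies inside these longer motifs, stood in 20.8% of all windows and in 7 of the 8. *Chga* alone of the 8 held TATAAA, in its transcribed part, a motif present in 13.6% of windows. A match describes letters only and says nothing of a bound factor.

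Libraries held 4326426 to 14624265 RNA UMIs in WT and 15505354 to 23582057 in V321L, so every V321L library was deeper than every WT library, and genotype and RNA depth cannot be told apart by library. After filters 16305 nuclei remained, 9387 of WT and 6918 of V321L, and marker genes gated 10544 of them as GCs (6604 WT, 3940 V321L). The GC nuclei had a median of 1086.5 to 1949 UMIs per WT mouse and 3241 to 4661 per V321L mouse. Gate and unsupervised cluster gave the same name to 97.8% of the GCs. Of 865 nuclei gated as CA3, 703 were WT and 109 lay in a cluster with mossy cell markers, and only 1 nucleus passed the mossy gate, so mossy cells were not described apart from CA3. Any library pair shared 1 to 13 cell barcodes. Levels are given as CPM, the UMIs of a gene over all UMIs of the same class and mouse, on a scale where 10000 CPM are 1% of the UMIs.

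In GCs, 9 of the 10 members differed between V321L and WT, 8 of them higher and 1 lower, by edgeR's quasi-likelihood test with Benjamini-Hochberg adjustment over all genes. That count has to be read against the background, since 70.2% of the 12259 genes tested passed the same test, 38.5% higher and 31.7% lower. The members' median log2 fold change was 1.09, against 0.11 over all genes. *Pcsk1n*, *Chga*, *Scg5*, *Scg2* and *Chgb* had the largest differences, *Scg3* and *Cpe* small ones, and *Pcsk2* was the member that fell.

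Among the granins, *Chga*, whose protein drives granule formation and is a source of peptides such as vasostatin, stood at 13.7, 6.79, 13.2 and 11.5 CPM in the GCs of WT F1, F2, M1 and M2, and at 58.2, 59.1, 53.5 and 61.7 CPM in those of V321L. The groups did not overlap, and their means were 11.3 CPM ± 3.14 (SD, n = 4) and 58.1 CPM ± 3.42 (SD, n = 4). The fitted log2 fold change was 1.96 (SE 0.17, edgeR adjusted p = 4.3e-07), or 3.90-fold.

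*Chgb*, whose protein fills granules and is cut into several peptides, measured 115, 64.5, 128 and 111 CPM in WT and 329.9, 261, 305 and 359 CPM in V321L. The genotypes did not overlap, and WT F2 was the lowest of all. The log2 fold change was 1.17 (SE 0.15, edgeR adjusted p = 1.0e-05). *Scg2*, the precursor of secretoneurin, measured 101, 42.6, 94.0 and 73.9 CPM in WT and 236, 221, 239 and 251 CPM in V321L. Here too the groups were apart, with WT F2 again the lowest, and the log2 fold change was 1.20 (SE 0.17, edgeR adjusted p = 3.1e-05).

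*Scg5* encodes a chaperone that keeps the convertase of *Pcsk2* inactive until it reaches the granule. Its GC level was 53.5, 50.5, 65.8 and 54.6 CPM in WT and 174, 201, 184 and 205 CPM in V321L, with no overlap. The log2 fold change was 1.33 (SE 0.10, edgeR adjusted p = 2.1e-07), with the smallest error of any member. *Scg3*, a granin that tethers other granins to the granule membrane, measured 52.6, 36.9, 51.5 and 48.4 CPM in WT and 76.04, 69.5, 79.0 and 87.2 CPM in V321L. Its groups did not overlap in CPM, but the fitted log2 fold change was 0.28 (SE 0.12, edgeR adjusted p = 0.0445). The call was lost in 7 of the 8 fits that left out 1 mouse, all but the fit without V321L F2.

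*Vgf*, a precursor of several secreted peptides, was sparse, with 44 UMIs over all WT GCs and 147 over all V321L GCs. Its level was 2.49, 2.55, 7.78 and 3.08 CPM in WT and 12.4, 6.43, 4.89 and 15.8 CPM in V321L. WT M1 exceeded V321L F2 and M1, so the groups overlapped. The log2 fold change of 1.002 (SE 0.41, edgeR adjusted p = 0.0436) was not called in 5 of the 8 fits that left out 1 mouse, where it ranged from 0.72 without V321L M2 to 0.89 without WT M2.

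*Pcsk1n* encodes proSAAS, a granule protein that inhibits the convertase of *Pcsk1* and yields peptides of its own. Its GC level was 23.0, 12.7, 79.6 and 19.6 CPM in WT and 955, 799, 748 and 1005 CPM in V321L. The V321L mice were far above the WT mice, among which M1 stood apart from the others. The log2 fold change was 4.44 (SE 0.37, edgeR adjusted p = 3.9e-07), or 21.8-fold, and without WT M1 it was 5.05. Of all members it was the furthest from 0.

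*Cpe*, the carboxypeptidase, measured 124, 114, 136 and 121 CPM in WT GCs and 254, 189, 172 and 282 CPM in V321L GCs. The groups did not overlap, while V321L F2 and M1 were nearer to WT than V321L F1 and M2. The log2 fold change was 0.42 (SE 0.14, edgeR adjusted p = 0.0167). The call was lost in 5 of the 8 fits without 1 mouse, those without WT F1, WT M1, WT M2, V321L F1 or V321L M2, where the value was 0.38, 0.36, 0.36, 0.36 and 0.30.

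The convertases themselves did not follow the granins. *Pcsk2* measured 449, 434, 418 and 423 CPM in WT and 423, 427, 472 and 447 CPM in V321L, so the groups overlapped and their means were 431 CPM ± 13.5 (SD, n = 4) and 442 CPM ± 22.6 (SD, n = 4). With TMM, which scales each library so that the typical gene is level, its log2 fold change was -0.41 (SE 0.11, edgeR adjusted p = 0.0035), 1.33-fold lower. Without TMM it was 0.04 and not called. *Pcsk1* had 36 UMIs in WT GCs and 54 in V321L GCs, a level of 4.05, 2.12, 2.99 and 2.24 CPM against 5.14, 2.50, 1.36 and 5.37 CPM. Those values overlapped, and the log2 fold change of -0.14 (SE 0.42, edgeR adjusted p = 0.772), an interval of -0.98 to 0.69 at 2 SE, turned to 0.32 without TMM.

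**Figure D1:**
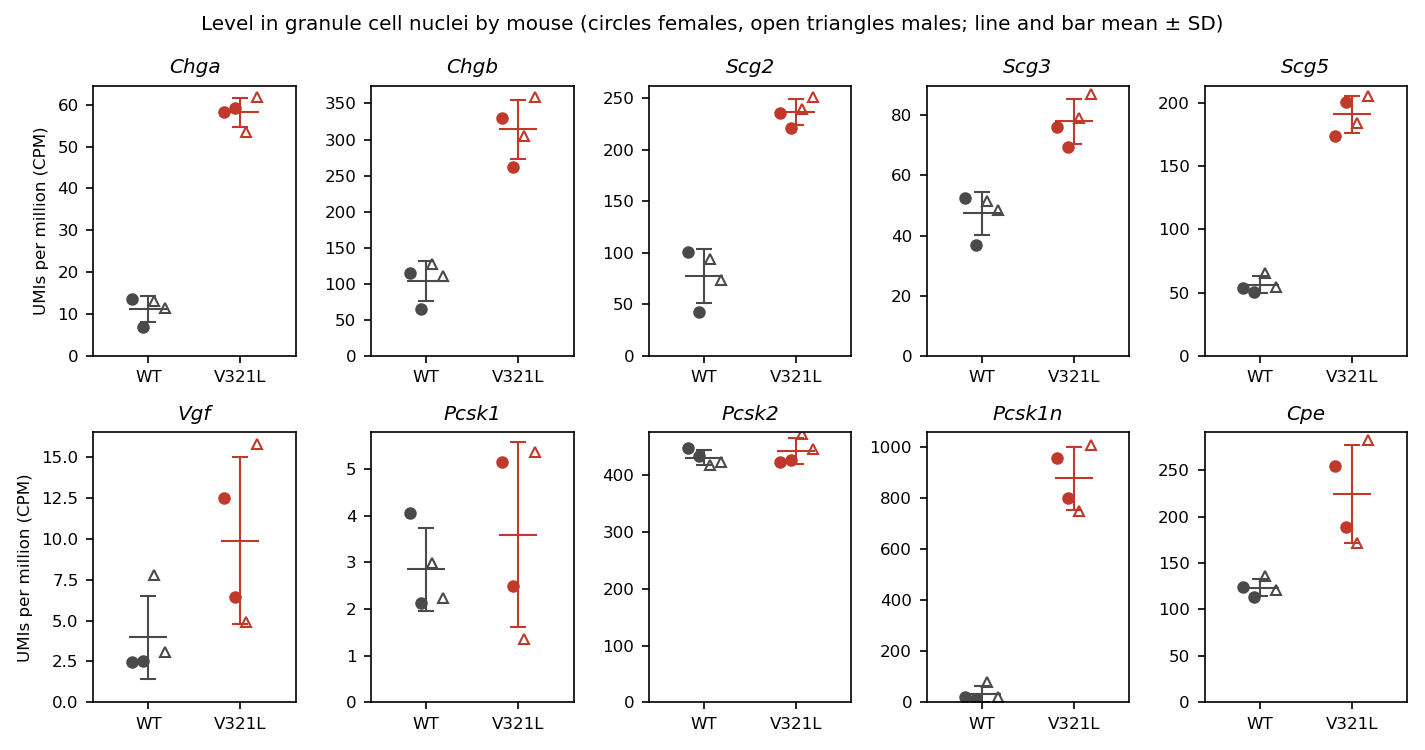
Level of each member in GCs, in CPM on linear axes that differ between panels, for each WT and V321L mouse (circles females, open triangles males; bars mean ± SD, n = 4). *Pcsk1n*, *Chga*, *Chgb*, *Scg2*, *Scg3*, *Scg5* and *Cpe* separate the genotypes, and *Vgf*, *Pcsk1* and *Pcsk2* overlap.

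Leaving out TMM shifted the median over all genes from 0.11 to 0.57 on the log2 scale, a shift of 0.45, and changed the split of calls from 38.5% higher and 31.7% lower to 54.2% and 17.4%. Under that scaling 8 members were called, all higher, so the direction given for *Pcsk2* and *Pcsk1* is relative to the typical gene. Judged by CPM alone, 7 of the 10 members had WT and V321L mice that did not overlap, all higher in V321L, and 64.1% of the 12259 genes did not overlap in either direction. No member's genotype effect differed between the sexes (edgeR interaction of genotype and sex, 0 of 10 members, and 0% of 13137 genes at an adjusted p of 0.05). At an unadjusted p under 0.05 that interaction gave 349 genes, none of them a member, and the nearest member was *Pcsk1n* at -1.19 (SE 0.59, unadjusted p = 0.0688).

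Nuclei differed in depth, so each was also thinned at random to 1000 UMIs, which left 754 to 1783 GCs per WT mouse and 788 to 1158 per V321L mouse. Among the 8 members with enough counts, 7 were still called, 6 higher and *Pcsk2* lower. Before thinning, 70.2% of all genes tested had been called, which is no matched background for the 7 of 8. The log2 fold changes at equal depth were 4.57 for *Pcsk1n*, 2.06 for *Chga*, 1.49 for *Scg5*, 1.23 for *Chgb*, 1.16 for *Scg2*, 0.42 for *Cpe* and -0.44 for *Pcsk2*. *Scg3*, at 0.25 (SE 0.17), was not called (edgeR adjusted p = 0.212), and *Vgf* and *Pcsk1* had too few UMIs to be tested.

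The share of GCs with at least 1 UMI was compared as well. *Pcsk1n* was seen in 5.42% of WT GCs and 91.2% of V321L GCs (means of 4 mice), *Chgb* in 16.3% and 61.0%, *Scg2* in 12.5% and 52.4%, and *Chga* in 2.13% and 19.8%. Shares of 9 members did not overlap between the genotypes, all 9 higher in V321L. Of all genes tested, 82.6% did not overlap in either direction. After thinning, 7 members remained apart, against 51.6% of genes. At equal depth the shares were 3.02% and 56.6% for *Pcsk1n*, 9.5004% and 25.4% for *Chgb*, 7.24% and 20.1% for *Scg2*, 5.13% and 18.1% for *Scg5*, 11.1% and 19.5% for *Cpe*, 4.37% and 6.80% for *Scg3* and 1.03% and 5.61% for *Chga*. Each of these had an exact two-sided permutation p of 0.0286, the smallest that 4 mice against 4 allow. *Pcsk2*, called lower in the fit with TMM, was not lower in V321L by share. At equal depth it no longer differed detectably, at 33.0% and 34.4% (exact permutation p = 0.229). Nor did *Vgf* at 0.417% and 1.06% (exact permutation p = 0.171) or *Pcsk1* at 0.169% and 0.234% (exact permutation p = 0.486).

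Droplets also catch free RNA, and its share differed between genes and genotypes. Oligodendrocytes, which make few dense-core vesicles, gave the background: after thinning, *Chgb* was seen in 7.92% of WT and 11.3% of V321L oligodendrocytes, *Scg2* in 1.19% and 0.873%, *Scg5* in 6.47% and 22.7%, and *Cpe* in 12.9% and 16.2%. *Pcsk1n* was seen in 0 of 65 thinned WT oligodendrocytes, which allows a share of up to 4.62%, and in 31.5% of V321L oligodendrocytes. The median UMIs before thinning were 750 to 923.5 in WT oligodendrocytes and 902 to 1304.5 in V321L ones. The WT share of *Cpe* in GCs was at or below that of oligodendrocytes. Its CPM over that of free RNA exceeded the ratio of glial markers in GCs in 3 of 4 WT mice, and 2 times that ratio in 0 of 4. The part of free RNA in the WT level of *Cpe* was not tested. The GC shares of *Scg5* also lay below those of oligodendrocytes. Its CPM in GCs was 0.652 to 1.75 times that of free RNA in WT and 0.417 to 0.491 times in V321L. That was over 2 times the ratio of glial markers in 4 of 4 mice of each genotype. Oligodendrocytes passed the same limit for *Scg5* in 4 of 4 mice of each genotype, at 0.341 to 2.69 times in WT and 0.419 to 0.525 times in V321L. The limit thus did not set GCs apart from oligodendrocytes. The GC shares of *Scg2* and, in V321L, of *Chgb* and *Pcsk1n* stood above those of oligodendrocytes. In WT GCs *Vgf* measured 0.054 to 0.171 times free RNA, above the ratio of glial markers in 2 of 4 mice. It exceeded 2 times that ratio in 0 of 4 WT mice, and *Chgb* and *Pcsk1n* each did so in 1 of 4. In V321L GCs each of them exceeded it in 4 of 4. The part of free RNA in these WT levels was not tested.

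In barcodes with at most 100 UMIs, taken as free RNA, *Pcsk1n* measured 231 CPM ± 133 (SD, n = 4) in WT and 2541 CPM ± 215 (SD, n = 4) in V321L, so the genotype difference was present outside nuclei too. Glial markers put the free RNA share of GC counts at 6.07% to 13.4% in WT and 2.72% to 8.31% in V321L. In V321L it was 8.31% in F1 and 8.30% in M2, against 2.72% in F2 and 3.68% in M1. *Cpe*, *Chgb*, *Pcsk1n*, *Vgf* and *Pcsk1* were higher in the GCs of V321L F1 and M2 than in those of F2 and M1. The other members did not split the V321L mice that way. The part of free RNA in that split was not tested. With the free RNA share taken off, which was an alternative chosen after the data were seen, all 8 members tested were called. Before that step 70.2% of all genes tested had been called, which is no matched background for the 8 members. The log2 fold changes then were 5.76 for *Pcsk1n*, 2.46 for *Cpe*, 2.41 for *Chga*, 2.22 for *Chgb*, 1.44 for *Scg2*, 1.27 for *Scg5*, 0.96 for *Scg3* and -0.39 for *Pcsk2*. The values of *Cpe*, *Chgb* and *Pcsk1n* moved the most, while *Scg5* kept 53.7 CPM ± 4.82 in WT and 176 CPM ± 17.9 in V321L (SD, n = 4). In WT the step left *Cpe* at 15.4 CPM ± 17.0, with 0 CPM in the lowest mouse, and *Pcsk1n* at 12.5 CPM ± 9.33 (SD, n = 4). The subtracted fold changes of *Cpe* and *Pcsk1n* thus rest on low WT levels.

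Other RNA features moved with genotype in the same nuclei. Ribosomal protein genes were higher in V321L GCs in 81 of 81 tested, with a median log2 fold change of 3.91, and mitochondrial RNA was 0.30% to 1.08% of UMIs in V321L GCs against 0.06% to 0.14% in WT GCs. The nuclear RNAs *Malat1* and *Meg3* were higher by 1.78 and 0.99. The vesicular glutamate transporters *Slc17a7* and *Slc17a6* summed to 346 to 391 CPM in V321L GCs and 32.2 to 99.3 CPM in WT GCs, while the 10 GC markers summed to 7189 to 8024 CPM in V321L and 9350 to 10430 CPM in WT. The part that any of these plays in the members' differences was not tested.

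Genotype differences also followed gene length across the GC transcriptome. The median log2 fold change was 1.70 over 2458 genes under 10 kb, 0.33 over 5359 genes of 10 to 50 kb, -0.38 over 1808 genes of 50 to 100 kb and -0.83 over 1965 genes over 100 kb. Read within its own length class, *Pcsk1n* (4.59 kb) lay above 96.6% of genes, *Chga* (10.1 kb) above 95.9%, *Chgb* (13.4 kb) above 82.5%, *Scg5* (52.8 kb) above 98.9% and *Cpe* (101 kb) above 97.4%. The rank of *Chga* depends on the class limit of 10 kb, which it barely exceeds. Among genes under 10 kb its 1.96 would lie inside the quartiles, 0.84 to 2.68. *Pcsk2*, the longest member at 270 kb, fell less than its class and lay above 77.7% of it. *Scg2* (5.66 kb) and *Vgf* (8.05 kb) lay above only 34.6% and 29.5% of genes under 10 kb. *Scg3* lay above 47.4% and *Pcsk1* above only 27.8% of genes of 10 to 50 kb, both inside the quartiles. The part of gene length in the members' values was not tested.

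**Figure D2:**
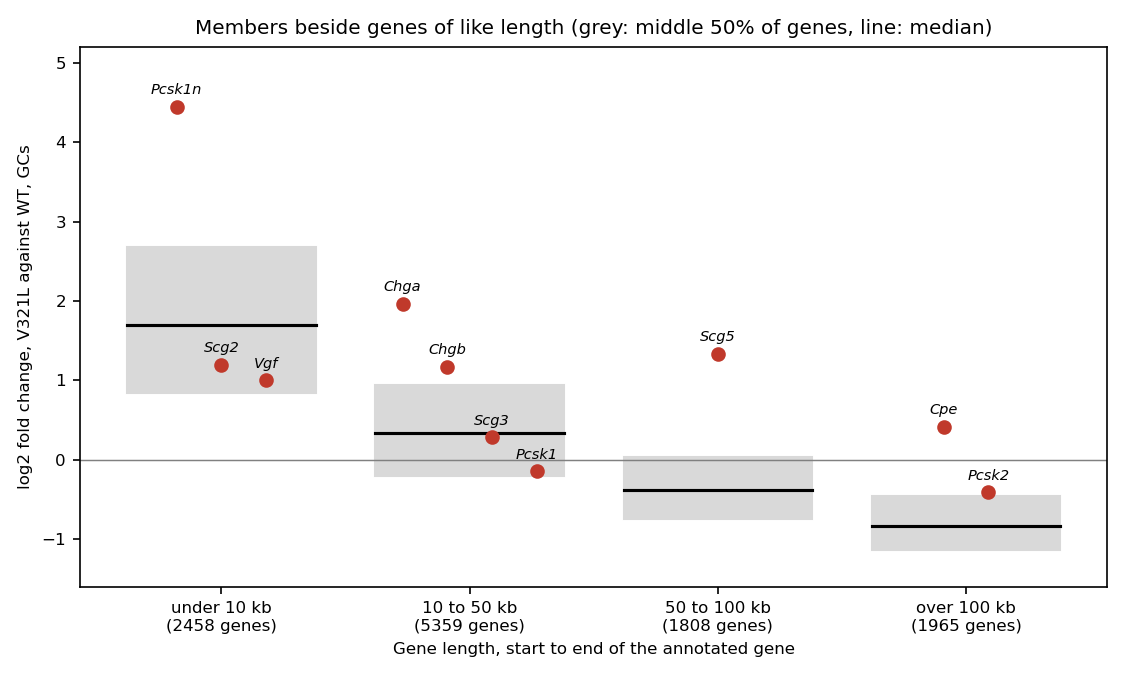
Log2 fold change of each member in GCs, V321L against WT, set over the median and quartiles of all genes in 4 classes of gene length (kb). *Pcsk1n*, *Chga*, *Chgb*, *Scg5*, *Cpe* and *Pcsk2* lie above the upper quartile of their class, and the other 4 members lie inside the quartiles. *Chga*, at 10.1 kb, barely exceeds the class limit and would lie inside the quartiles of genes under 10 kb.

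The rest of the pathway moved in both directions in GCs. Of 11 other processing enzymes 7 were tested, and 3 rose and 3 fell: the cathepsins *Ctsl* and *Ctsb*, lysosomal proteases of which the first also cuts prohormones, rose by 2.75 and 1.48 on the log2 scale, and the convertase *Pcsk5* and the amidating enzyme *Pam* fell by 0.98 and 0.94. Of 20 genes for dense-core vesicle formation and release 19 were tested, 10 rose and 6 fell, with *Rab3a* at 3.14, *Cyb561* at 1.97, *Hid1* at 1.25 and *Rab27b* at -1.23. Of 20 peptide precursors and secreted cargo genes 9 were tested and 8 rose, among them *Npy* at 4.62, *Sst* at 4.19, *Cck* at 3.93 and *Nppc* at 2.50. *Sst* marks interneurons, and the interneuron marker list summed to 51.1 to 87.5 CPM in V321L GCs and 57.7 to 82.0 CPM in WT GCs. Most UMIs of that list were of *Gad1*, which GCs also express (1228 in GCs without a *Penk* UMI, with *Erbb4* next at 316). Nuclei with an excess of the list were gated out of the GCs, so these sums cannot check for interneuron RNA. The median log2 fold change was 0.29 for processing, 0.47 for the vesicle genes and 2.26 for cargo, beside 0.11 for all genes. Genes under 10 kb had a median of 1.70, with 79.1% called higher. These lists were not compared with genes of like length, and the part of length in their values was not tested. Of all genes 38.5% were called higher and 31.7% lower, and the 6 of 19 vesicle genes that fell and the 3 and 3 of 7 processing enzymes lay close to those shares.

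Cell classes of the same libraries were compared next, in 7 or 8 mice with the mouse as a block. *Cpe* and *Scg3* stood out in astrocytes or radial glia. *Cpe* measured 1573, 1507, 929 and 1097 CPM there in WT F1, F2, M1 and M2 and 2783, 2796, 2959 and 2536 CPM in V321L. *Scg3* measured 574, 409, 155 and 294 CPM in WT and 1186, 1343, 1507 and 1029 CPM in V321L. Against GCs the log2 fold change was 3.28 (SE 0.21, edgeR adjusted p = 1.8e-12) for *Cpe* and 3.31 (SE 0.26, edgeR adjusted p = 7.5e-11) for *Scg3*. In the same comparison *Chga* was lower by 2.47, *Pcsk2* by 2.33, *Scg2* by 2.13, *Pcsk1n* by 1.02, *Chgb* by 0.75 and *Scg5* by 0.55. That made 8 of 9 members tested, where 45.4% of all genes were called. The lower values did not all hold in WT mice alone, where only *Cpe*, *Scg3* and *Pcsk2* of 8 members were called and *Chgb* and *Pcsk1n* turned to 0.030 and 0.10, with WT means of 141 CPM for *Chgb* and 43.0 CPM for *Pcsk1n* in astrocytes or radial glia against 104.5 and 33.7 CPM in GCs.

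CA3 nuclei carried more *Chgb*, *Cpe* and convertases than GCs and less *Scg2*. *Pcsk2* measured 1059, 963, 1007 and 878 CPM in the CA3 of WT F1, F2, M1 and M2, and 937, 808 and 1223 CPM in that of V321L F1, F2 and M2 (V321L M1 had 8 CA3 nuclei and was left out). *Scg2* measured 18.9, 20.02, 13.0 and 22.4 CPM in WT CA3 and 46.0, 89.7 and 40.6 CPM in V321L CA3. In each mouse with CA3 values both lay on the side given by the fit, *Pcsk2* above and *Scg2* below the GC level. The log2 fold changes against GCs were 2.34 for *Pcsk1*, 2.26 for *Cpe*, 1.603 for *Chgb*, 1.56 for *Vgf*, 1.16 for *Pcsk2* and 0.67 for *Scg5*, and -2.10 for *Scg2*, -0.91 for *Pcsk1n* and -0.73 for *Scg3* (9 of 10 members called against 37.4% of genes). *Chga*, at -0.22, was not called.

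CA1 nuclei were few, 69 in WT and 291 in V321L, and WT F1, with 7 of them, was left out of the fits. Here 7 of 10 members were called against GCs, beside 22.5% of genes. *Pcsk1* was higher by 3.74 (SE 0.53), *Vgf* by 2.43, *Cpe* by 1.72, *Scg5* by 0.91 and *Chgb* by 0.60, while *Pcsk1n* was lower by 1.17 and *Scg2* by 0.92. Thinned to 1000 UMIs, *Pcsk1*, *Vgf*, *Cpe* and *Scg5* were called, while *Scg2* at -0.88, *Chgb* at 0.48 and *Pcsk1n* at -0.95 were not (edgeR adjusted p = 0.0875, 0.336 and 0.0643). With WT mice alone 2 of 9 were called, *Cpe* and *Pcsk1*. *Pcsk1* in CA1 rested on V321L F2 and M1, at 66.5 and 124 CPM, with 9.09 and 8.35 CPM in V321L F1 and M2 and 43.4, 0 and 35.1 CPM in WT F2, M1 and M2.

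GABAergic nuclei, at 39 to 99 per WT mouse and 32 to 53 per V321L mouse, differed from GCs in all 10 members, beside 39% of genes. *Vgf* was higher by 2.85, *Pcsk1* by 2.71, *Chga* by 1.15, *Scg5* by 1.09, *Cpe* by 0.70 and *Scg3* by 0.50, and *Pcsk2* was lower by 1.73, *Chgb* by 0.63, *Scg2* by 0.49 and *Pcsk1n* by 0.37. Thinned to 1000 UMIs, *Scg3* at 0.054 and *Cpe* at 0.36 were not called (edgeR adjusted p = 0.927 and 0.123). With WT mice alone 6 of 10 were called, without *Scg2*, *Chgb*, *Scg3* and *Pcsk1n*. The interneurons thus held the highest mean *Chga* and *Vgf* of any class in both genotypes. *Chga* measured 24.7, 20.3, 83.0 and 28.4 CPM in WT and 198, 58.0, 144 and 137 CPM in V321L GABAergic nuclei. *Pcsk1* and *Pcsk2* went in opposite directions between GABAergic nuclei and GCs.

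Microglia were low in most members, and OPCs and oligodendrocytes in fewer. Against GCs, microglia were lower in all 8 members called of 9 tested (background 41.7%), oligodendrocyte precursors (OPCs) in all 4 called of 9 (37.3%) and oligodendrocytes in all 5 called of 10 (44.2%). *Scg2*, *Chgb*, *Chga* and *Pcsk2* were called lower in each of these 3 classes. The levels of *Scg2* in them were at most 53.1 CPM ± 53.9 (SD, n = 4), in WT oligodendrocytes. *Pcsk1n*, *Cpe*, *Scg5* and *Scg3* were not called in OPCs, where their V321L means of 1071, 433, 295 and 139 CPM exceeded the 877, 224, 191 and 77.9 CPM of V321L GCs. With WT mice alone 3 of 8 members were called in microglia and 1 of 10 in oligodendrocytes.

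In the order of mean levels most neighbouring classes overlapped between mice. *Cpe* in astrocytes or radial glia lay wholly above the next class, CA3, in both genotypes, and *Scg3* there lay above CA1 in WT and above neuroblasts in V321L. *Pcsk2* in CA3 lay above CA1 in WT only, and *Pcsk1* in CA3 lay above GCs in both genotypes. GCs lay above OPCs for *Pcsk2* in both genotypes. For *Chga*, *Chgb*, *Scg2* and *Pcsk1n* no pair of neighbours in the order was apart in either genotype.

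**Figure D3:**
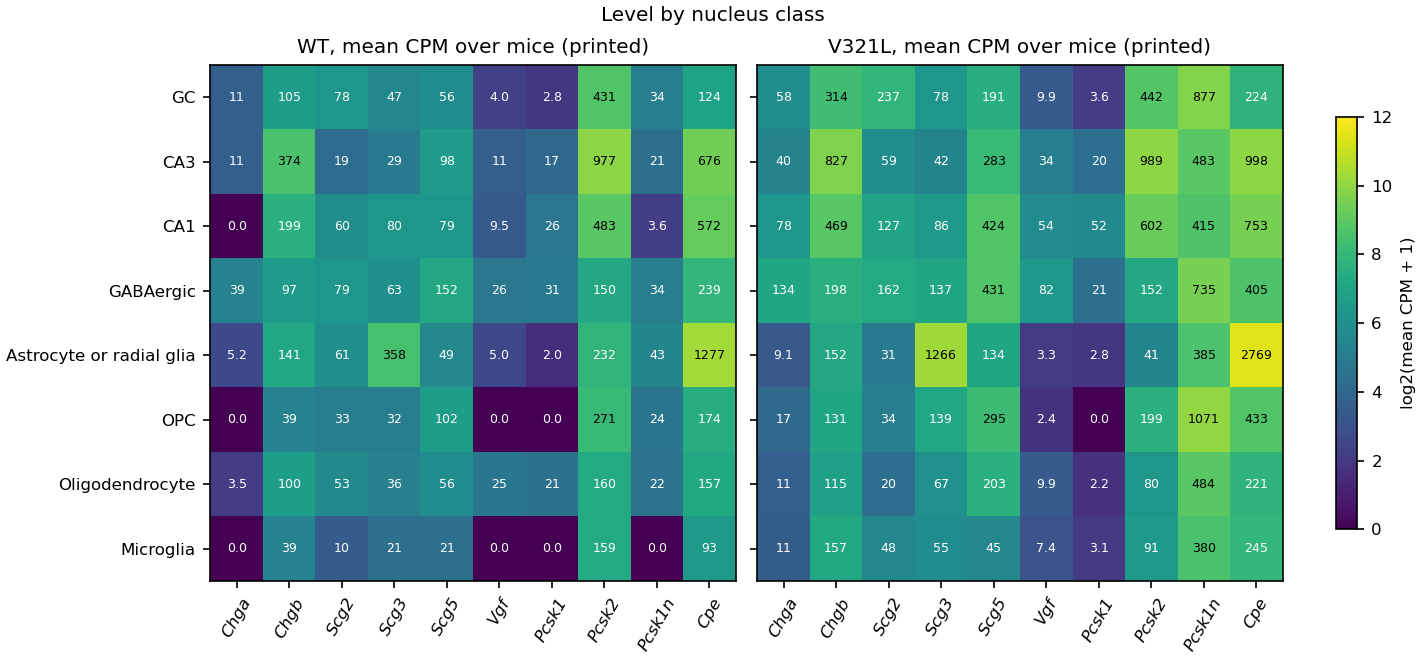
Mean level of the 10 members in 8 cell classes of WT and V321L mice, coloured by log2(mean CPM + 1) with the mean CPM printed in each cell. *Cpe* and *Scg3* are highest in astrocytes or radial glia, *Chgb* and *Pcsk2* in CA3, and *Vgf* and *Chga* in GABAergic nuclei.

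Next the genotypes were compared within each class. *Pcsk1n* was called in all 7 classes beside GCs and *Scg5* in 6 of them, microglia being the class in which *Scg5* was not tested. In GABAergic nuclei 8 of 9 members were called, all higher in V321L, where 33.4% of genes were called and 20.2% were higher. The log2 fold changes there were 4.69 for *Pcsk1n*, 2.00 for *Chga*, 1.81 for *Vgf*, 1.52 for *Scg5*, 1.09 for *Chgb*, 1.06 for *Scg3*, 1.04 for *Scg2* and 0.76 for *Cpe*, and *Pcsk2* was at 0.02 (interval -0.42 to 0.45 at 2 SE).

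In CA3 5 of 8 members were called, all higher, beside 49% of genes called and 26.8% higher: *Pcsk1n* at 4.57, *Chga* at 1.78, *Scg5* at 1.29, *Scg2* at 1.04 and *Chgb* at 0.99. V321L F2 had 14 CA3 nuclei and V321L F1 58, against 119 to 301 per WT mouse. In CA1 3 of 8 were called (10.3% of genes, 8.07% higher). *Scg5* there was higher by 2.30, and *Chga*, with 0 UMIs of 181067 in WT and 134 of 1609204 in V321L, was at least 5.03-fold higher against a floor of 3 UMIs over the WT group. *Pcsk1n* had 1 UMI in WT CA1 and 693 in V321L CA1, a ratio of 78.0 (exact 95% interval 13.9 to 3084, counting error only). *Chgb* in CA1, at 1.15, was not called (edgeR adjusted p = 0.0566).

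Among glia, microglia had 1 of 2 members called (17.3% of genes, 13.8% higher), *Pcsk1n*, with 0 UMIs in WT and 117 in V321L, at least 9.53-fold higher against the same floor. Microglia numbered 67 in WT and 254 in V321L, and WT M1, with 6 of them, was not in the fit. The call was lost in 5 of the 7 fits that left out 1 more mouse, those without WT F1, WT F2, V321L F1, V321L F2 or V321L M2. OPCs had 3 of 4 called (18.5%, 13.1% higher), *Pcsk1n* at 5.45, *Scg5* at 2.05 and *Cpe* at 1.497. Oligodendrocytes had 2 of 5 called (47.7%, 24.7% higher), *Pcsk1n* at 4.88 and *Scg5* at 1.98. The V321L levels of *Pcsk1n* in these glia, 379.6 to 1071 CPM, stood below the 2541 CPM of free RNA, as did the 877 CPM of V321L GCs. Relative to free RNA it measured 0.28 to 0.40 times in V321L GCs and 0.29 to 0.54 times in V321L OPCs. The part of free RNA in the glial levels was not tested.

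**Figure D4:**
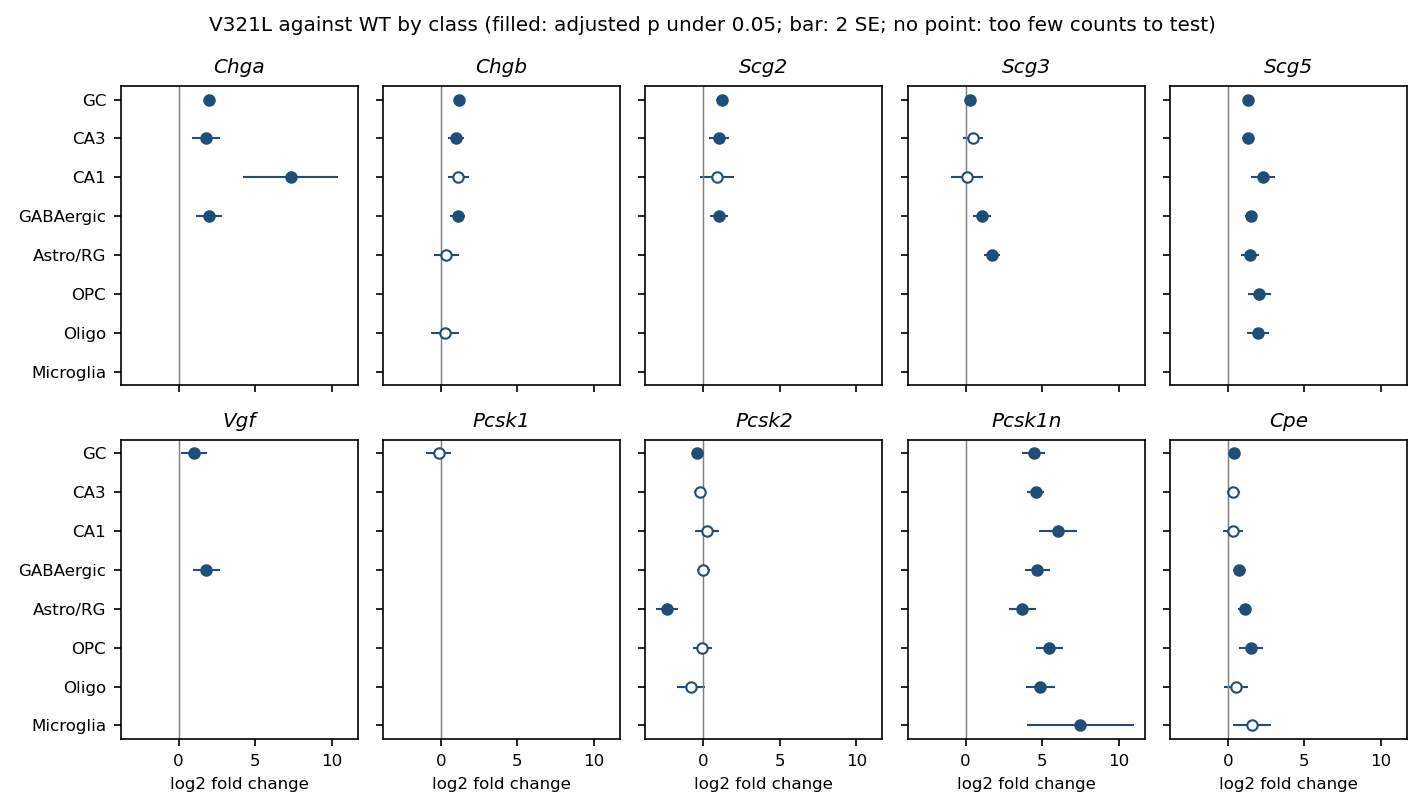
Log2 fold change, V321L against WT, of each member in each cell class (bars 2 SE; filled points passed edgeR's adjusted p of 0.05; no point where counts were too few). *Pcsk1n* and *Scg5* are higher in every class in which they were tested, and *Pcsk2* is far below 0 in astrocytes or radial glia.

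In astrocytes or radial glia 5 of 6 members were called, 4 higher and 1 lower, beside 49.2% of genes called and 24.8% higher. *Pcsk2* measured 220.2, 107, 387 and 214 CPM in WT and 42.5, 30.4, 55.1 and 36.2 CPM in V321L, without overlap, and the log2 fold change was -2.35 (SE 0.36, edgeR adjusted p = 2.8e-05). *Scg3* rose by 1.74 (SE 0.27, edgeR adjusted p = 3.1e-05), *Cpe* by 1.10, *Scg5* by 1.44 and *Pcsk1n* by 3.71, and *Chgb*, at 0.35, was not called. Lower mean *Pcsk2* in V321L was not particular to this class. WT and V321L means were 160 and 79.8 CPM in oligodendrocytes, 271 and 199 CPM in OPCs and 159 and 90.6 CPM in microglia. *Pcsk2* was not among the members called in those classes.

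The difference between classes was tested itself, as the interaction of class and genotype with the mouse as a block. Between astrocytes or radial glia and GCs 4 members passed, beside 7.06% of all genes. The genotype effect in astrocytes or radial glia was lower than in GCs by 2.34 for *Scg2* (SE 0.47, edgeR adjusted p = 3.7e-05), by 2.10 for *Pcsk2* (SE 0.36, edgeR adjusted p = 5.1e-07) and by 1.07 for *Chgb* (SE 0.31, edgeR adjusted p = 0.0133). For *Scg3* it was higher by 1.27 (SE 0.25, edgeR adjusted p = 3.7e-05). The interaction was not fitted for oligodendrocytes, OPCs or microglia. Thinned to 1000 UMIs, *Scg2* at -2.46 and *Scg3* at 1.57 were still called, while *Pcsk2* at -1.78 (SE 0.56, edgeR adjusted p = 0.0525) and *Chgb* at -1.26 (SE 0.46, edgeR adjusted p = 0.122) were not. Astrocytes or radial glia had a median of 906 to 1174 UMIs per WT mouse and 1232 to 1892 per V321L mouse. The WT astrocyte levels of *Scg2* and *Pcsk2*, at 61.4 CPM ± 38.3 and 232 CPM ± 115 (SD, n = 4), stood beside 214 and 296 CPM in the free RNA of WT libraries, and the part of free RNA in these interactions was not tested.

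Between CA3 and GCs no member passed (0 of 10, beside 0.0679% of genes), while 882 genes had an unadjusted p under 0.05. Among those were *Cpe*, at -0.57 (SE 0.17, unadjusted p = 0.0015, edgeR adjusted p = 0.266), and *Chgb*, at -0.54 (SE 0.18, unadjusted p = 0.0035, edgeR adjusted p = 0.372). Between GABAergic nuclei and GCs, a comparison added after the data were seen, no member passed either (0 of 10, beside 1.32% of genes and 1135 genes at an unadjusted p under 0.05). The genotype effect on *Scg5* there differed by -0.05 (SE 0.23) and that on *Chga* by -0.22 (SE 0.41).

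*Penk*, the precursor of enkephalins, marks a small group of GCs in which the study was interested. *Penk* was seen in 65 WT GCs, 0.616% to 1.92% per mouse, and in 255 V321L GCs, 5.01% to 7.96% per mouse. These shares are at full depth, which was greater in the GCs of every V321L mouse, and were not recomputed at equal depth. At full depth the shares of 82.6% of all genes tested did not overlap between the genotypes. Between *Penk*+ and *Penk*- GCs of the same mouse 5 of 10 members were called, all higher in *Penk*+ GCs, beside 6.13% of genes called and 2.24% called higher. They were *Pcsk1*, *Vgf*, *Scg2*, *Chgb* and *Scg5*, while *Pcsk2*, at 0.28, was not called (edgeR adjusted p = 0.200). The study had itself compared *Penk*+ with *Penk*- GCs of these libraries and counted *Scg2* and *Chgb* among its marker genes. All 5 calls given here repeat that comparison on the same mice and are not independent of it.

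*Scg2* measured 435, 397, 469.9 and 466 CPM in the *Penk*+ GCs of V321L F1, F2, M1 and M2, against 219.8, 206, 225 and 239 CPM in their *Penk*- GCs. In WT it measured 249.4, 146, 0 and 354 CPM against 97.2, 41.9, 94.9 and 71.0 CPM. It was thus higher in 7 of 8 mice, and the log2 fold change was 0.99 (SE 0.13, edgeR adjusted p = 3.8e-12).

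*Chgb* measured 583, 494, 869 and 612 CPM in *Penk*+ and 309, 242, 271 and 345 CPM in *Penk*- GCs of V321L. In WT it measured 214, 87.8, 436 and 109 CPM against 112, 64.3, 125 and 111 CPM. Higher in 7 of 8 mice, it had a log2 fold change of 0.99 (SE 0.13, edgeR adjusted p = 3.8e-12). *Scg5* was higher in 8 of 8 mice, by 0.44 (SE 0.14, edgeR adjusted p = 0.0323), and *Vgf* in 5 of 8, by 1.14 (SE 0.38, edgeR adjusted p = 0.0429). *Vgf* had only 22 UMIs in all *Penk*+ GCs. It was higher in 1 of 4 WT mice, M1, from 1 UMI, and the other 3 WT mice had 0 UMIs.

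*Pcsk1* was the member most tied to *Penk*, with 29 UMIs in the *Penk*+ GCs. Its level in V321L was 54.0, 9.07, 4.75 and 18.2 CPM in *Penk*+ GCs, from 15, 4, 1 and 3 UMIs, and 1.17, 1.94, 1.15 and 4.61 CPM in *Penk*- GCs. In WT it was 59.4, 0, 62.3 and 0 CPM, from 5, 0, 1 and 0 UMIs, against 2.56, 2.14, 2.42 and 2.26 CPM. The log2 fold change was 3.26 (SE 0.41, edgeR adjusted p = 9.7e-13), and the F1 mice gave 15 and 5 of the 29 UMIs. *Penk*+ GCs had median depths of 1185 to 2995 UMIs in WT and 3467 to 4429.5 in V321L, against 1086.5 to 1930.0 and 3188 to 4671 in *Penk*- GCs. Thinned to 1000 UMIs, only *Pcsk1* was called, at 3.24 (SE 0.77, edgeR adjusted p = 0.00534), with *Scg2* and *Chgb* both at 0.72 (edgeR adjusted p = 0.124). Matched to *Penk*- GCs of similar UMI count, 5 of the members were called. Without matching, 6.13% of all genes had been called, which is no matched background for the 5.

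Other genes of the pathway were compared between *Penk*+ and *Penk*- GCs too. Of the processing enzymes 1 of 7 tested was higher, of the vesicle genes 2 of 19 were higher and 1 lower, of the cargo genes 3 of 7 were higher and 1 lower, and of the ribosomal protein genes 0 of 81 were called, beside the 6.13% of all genes called and the 2.24% called higher. The cargo list had the highest median log2 fold change, 0.83, with 0.19 for processing, -0.04 for the vesicle genes and -0.08 for all genes. Among interneuron markers *Gad1*, which GCs also express, had 73 UMIs in *Penk*+ GCs, and *Gad2*, *Slc32a1*, *Dlx1* and *Dlx6os1* had 1, 0, 0 and 0. The gate had left nuclei with an excess of these markers out of the GCs, so the low counts were in part set by it. The 6 OPC markers summed to 47.5 to 249.2 CPM in *Penk*+ and 35.5 to 47.1 CPM in *Penk*- GCs of WT, and to 40.8 to 119 CPM against 24.5 to 34.1 CPM in V321L, without overlap in either genotype. The 9 microglia markers summed to 131 to 311 CPM in *Penk*+ and 88.5 to 227 CPM in *Penk*- GCs of WT, and to 48.5 to 80.7 CPM against 63.9 to 96.9 CPM in V321L, with overlap in both. The part of such RNA in the *Penk*+ differences was not tested.

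**Figure D5:**
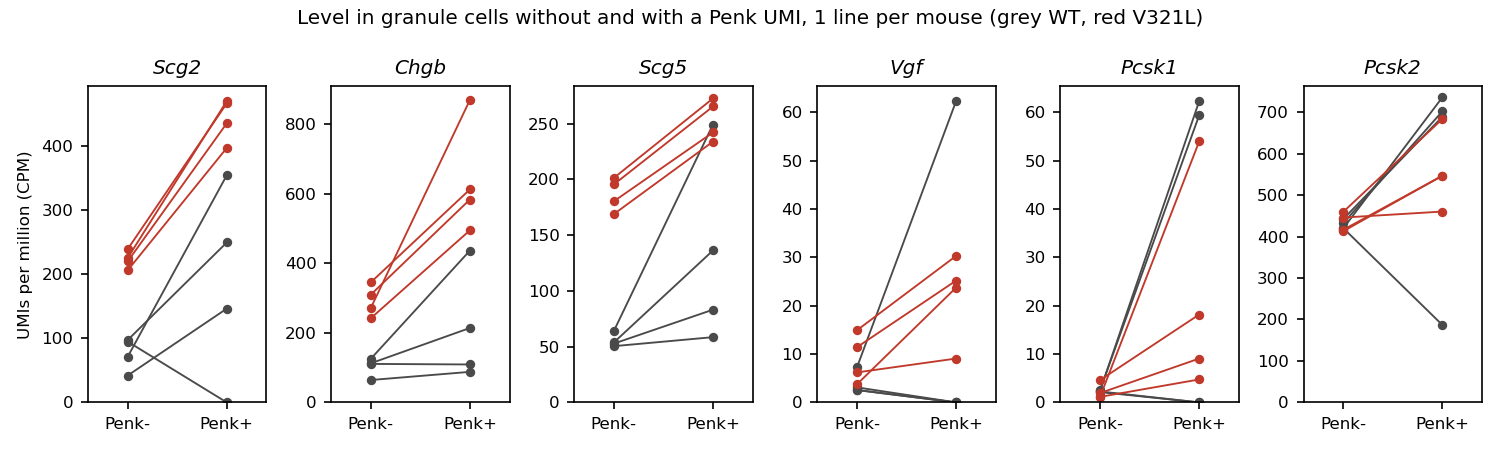
Level (CPM) of *Scg2*, *Chgb*, *Scg5*, *Vgf*, *Pcsk1* and *Pcsk2* in *Penk*- and *Penk*+ GCs, with a line for each of 4 WT and 4 V321L mice. *Scg5* is higher in *Penk*+ GCs in 8 of 8 mice and *Scg2* and *Chgb* in 7 of 8, and *Vgf* and *Pcsk1* rest on 22 and 29 UMIs.

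The promoters of the members were next compared in the accessibility data of the same GCs. Counts in peaks within 1 kb of the start were used for the 9 members with such a peak in every library, and *Pcsk1*, with a peak in 5 of 8 libraries, was left out. No member was called (edgeR, 0 of 9), and neither was any of 13034 genes (0%), with 1096 genes at an unadjusted p under 0.05. Accessibility counts per library ran from 11953485 to 18352665 in WT and from 6580616 to 25552769 in V321L. Peaks, called per library, numbered 61021 to 86955 in WT and 36556 to 130470 in V321L. The part of these in the spread between mice was not tested, and the lack of a call does not show equal accessibility. *Scg2* measured 21.5 CPM of accessibility counts ± 1.75 in WT and 21.04 ± 1.15 in V321L, and *Chgb* 38.2 ± 2.20 and 40.3 ± 10.3 (SD, n = 4). *Chga* measured 37.7 ± 2.34 and 37.5 ± 10.5, and *Pcsk1n* 16.1 ± 2.42 and 19.1 ± 2.99 (SD, n = 4). The genotypes overlapped in each.

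For *Pcsk1n*, whose RNA differed the most, the log2 fold change of promoter counts was 0.16 (SE 0.15), an interval of -0.14 to 0.46 at 2 SE. That of *Chga* was -0.13 (interval -0.35 to 0.08) and that of *Scg2* -0.07 (interval -0.34 to 0.20). Peaks overlapped the promoter windows of *Scg2*, *Chgb* and *Chga* shown above, with their cAMP response elements, in all 8 libraries, and that of *Pcsk1* in 5. In astrocytes or radial glia the promoter of *Scg3* measured 75.7 CPM of accessibility counts ± 33.2 in WT and 76.1 ± 23.9 in V321L, and in GCs 27.3 ± 1.03 and 27.3 ± 0.413 (SD, n = 4).

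The genes whose levels over 8 cell classes of WT mice were most like each granin, by Pearson's r of log2(CPM + 1), differed from granin to granin. *Scg3* was most like *Lgr4* and *Maob*, a monoamine oxidase of astrocytes (r = 0.98 and 0.97), and *Scg5* most like *Dcx* and *Plcxd3* (0.98 and 0.97). *Vgf* was most like the member *Pcsk1* and *Coq3* (0.95 and 0.95), *Chgb* like *Anks3* and *Trhde* (0.97 and 0.95), and *Scg2* like *Tnks* and *Igsf11* (0.95 and 0.93). In WT oligodendrocytes *Vgf* had 3 UMIs (25.4 CPM) and *Pcsk1* had 4 (21.1 CPM). Both had 0 UMIs in WT OPCs and microglia, so their likeness rests on few counts. The 8 points share libraries and depth, and these values describe them with no test. *Chga*, under 10 CPM in its mean over classes, was not ranked.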

How the data were processed

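The authors made the deposited files with Cell Ranger ARC, with mm10 given in the submitters' processing notes (Seurat and Signac are named there too), as matrices of every barcode in 8 libraries, without pooling. Per the file headers the values are raw counts, RNA UMIs per gene and ATAC counts per peak, with peaks called per library. Columns of other series numbered 0.

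Nuclei needed at least 500 UMIs, 250 genes and 500 ATAC counts and passed the study's stated upper limits. Nuclei whose Scrublet score lay over 2 SDs above their library's mean were removed as doublets. Classes were gated per nucleus by marker UMIs. A class other than GCs needed 2 of its markers or more, and UMIs above their rate in provisional GCs of the same library (Poisson tail under 0.0001). Of the remaining nuclei, GCs needed 40 GC marker UMIs per 10000, at least 3 such UMIs and 2 markers. A class needed at least 10 nuclei per mouse to enter a fit. UMIs were summed per mouse and class and tested with edgeR 4.0.16 (quasi-likelihood, TMM, filterByExpr, Benjamini-Hochberg over all genes) in R 4.3.3, with DESeq2 1.42.0 as an alternative, so the unit of replication was the mouse. Single values used exact permutation tests over 70 assignments. Clusters were made with leidenalg 0.10.2 under Python 3.11.15. On simulated GC counts of 12220 genes, all given a dispersion of 0.05, the test recovered 6 of 67 genes changed by 0.5, 38 of 67 changed by 1 and 66 of 66 changed by 2 on the log2 scale, with 5 false calls. That dispersion was set and not estimated from the data, so recovery of real genes may differ. Exact intervals of counts and floors cover counting error only, while intervals at 2 SE come from the fits over mice.

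The 10 members, the gene lists and the markers were chosen with earlier results of these data known. Named genes were the members, the 2 genes most like each granin, and up to 4 genes of each list with the largest change in GCs. Nothing says how mice were spread over sequencing runs. Promoter sequences are from RefSeq (GRCm38.p6), and a start site lay in a peak's window of 1 kb to each side.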

Additional observations from a re-analysis of the deposited data

Results flagged for a closer look

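In the GCs of WT M1, *Vgf* measured 7.78 CPM, against 2.49 to 3.08 CPM in the other WT mice, a gap large for a group of 4 mice. *Pcsk1n* stood apart in the same mouse, at 79.6 CPM against 12.7 to 23.0 CPM. These were 2 of 58 groups examined, and chance alone marks about 1 group in 20. WT M1 had the lowest median depth in GCs, 1086.5 UMIs. Its free RNA share of GC counts was 13.4%, against 6.07% to 6.64% in the other WT mice. In free RNA *Pcsk1n* measured 429 CPM in WT M1 and 140 to 182 CPM in the other WT mice. The part of depth and free RNA in these 2 values was not tested. The genotype effect differed between astrocytes or radial glia and GCs for 4 members by the edgeR interaction with adjusted p: *Scg2* by -2.34, *Pcsk2* by -2.10, *Chgb* by -1.07 and *Scg3* by 1.27 on the log2 scale.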

How the results depend on the processing

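Of the counts of called members recomputed under other settings, 151 stayed within 1.5 times the value given and 24 did not, and of the values of single members 469 kept their direction and their side of the threshold, 54 lost and 4 gained a call, and 25 changed sign. In GCs the genotype count of 9 became 7 of the 8 tested after thinning to 1000 UMIs, 8 of 8 after thinning to 500, 8 without TMM, without the filter on low counts, with sex as a covariate or with doublets kept, 7 with DESeq2 or unsupervised (Leiden) clusters, 9 without upper limits or without the ATAC minimum, and 6 to 9 without 1 mouse. Over all genes 8610 of 12259 were called, against 8915 with DESeq2 and 10086 of 24503 without the filter. Genotype counts in other classes became 3 of 3 in astrocytes or radial glia, 3 of 3 in GABAergic nuclei, 1 of 1 in OPCs and 1 of 1 in oligodendrocytes after thinning, where fewer members had enough counts, 5 of 10 in GABAergic nuclei without the filter, and 5 of 10 in CA1 and 3 of 3 in microglia with Leiden clusters. Under the main settings 49.2% of genes were called in astrocytes or radial glia, 33.4% in GABAergic nuclei and 18.5% in OPCs. In oligodendrocytes, CA1 and microglia those shares were 47.7%, 10.3% and 17.3%. Shares of all genes under the other settings are not given here, so these counts have no matched background. Without 1 mouse the genotype counts ranged from 3 (without V321L M2) to 6 in CA3, 5 (without WT M2) to 8 in GABAergic nuclei, 2 to 4 in CA1 and 0 to 1 in microglia. With WT mice alone the count against GCs was 3 of 8 in astrocytes or radial glia, 2 of 9 in CA1, 6 of 10 in GABAergic nuclei, 3 of 8 in microglia and 1 of 10 in oligodendrocytes, and in CA1 it was 4 after thinning. With mice of both genotypes at full depth, 45.4%, 22.5%, 39%, 41.7% and 44.2% of genes were called in those classes. The interaction in astrocytes or radial glia gave 2 of 8 after thinning, and *Penk*+ GCs gave 1 after thinning, 3 without the filter and 2 with WT mice alone. Signs changed as follows, on the log2 scale. In GCs *Pcsk2* was 0.035 and *Pcsk1* 0.32 without TMM, and *Pcsk1* ran from -0.37 to 0.11 without 1 mouse. Against GCs with WT mice alone, *Chgb* was 0.030 and *Pcsk1n* 0.10 in astrocytes or radial glia and *Chga* 0.14 in CA3. In *Penk*+ GCs *Pcsk2* was -0.095, *Cpe* -0.014 and *Chga* 0.038 after thinning, *Pcsk2* -0.010, *Cpe* -0.12 and *Pcsk1n* -0.21 without the filter, *Pcsk1n* -0.16 with at least 2 *Penk* UMIs, and *Scg3* 0.048 without TMM and 0.11 with V321L mice alone. In promoter counts *Scg5* was -0.086, *Scg3* 0.027 and *Pcsk1n* -0.028 after thinning, *Chgb* 0.040 and *Scg3* 0.0023 without TMM, and without 1 mouse *Scg5* ran from -0.0076 to 0.15 and *Scg3* from -0.099 to 0.047. The cause of these changes was not tested, other than the fewer members or mice named. Mice of WT and V321L with the same number share only that number (correlation of deviations 0.05, 0.27, -0.13 and 0.01), and with the replicate block the counts were 9 in GCs, 5 in astrocytes or radial glia, 3 in CA1, 5 in CA3, 8 in GABAergic nuclei, 1 in microglia, 3 in OPCs, 2 in oligodendrocytes and 0 in promoters, the counts without it. Free RNA subtraction, the length classes, the counts of overlap and the GABAergic interaction were chosen after the data were seen. Depth limits *Vgf* and *Pcsk1* in GCs and most members in glia and WT CA1.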
